A study of Homo sapiens with 12 samples.

Results

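EGR1 and 9 other genes of the immediate early response (EGR2, EGR3, FOS, FOSB, FOSL1, JUN, JUNB, IER2 and ATF3) were described in TPC1 cells and in 3 Dicer1 (+/−) cell lines made from them. They are 10 of the 58302 genes in the table and were taken by their symbols. EGR1 headed the set because, of the genes that were higher in every Dicer1 (+/−) line, it had the largest rise over TPC1. Its values against TPC1 are therefore given as a description, without a test. The other 9 were added as relatives or usual companions of EGR1.

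TPC1, an established line of papillary thyroid carcinoma cells, served as the control. The lines D11, WB1 and TD5 were derived from TPC1 by transient transfection of a CRISPR-Cas9 plasmid with a guide against Dicer1, which encodes the ribonuclease that cuts precursor miRNAs. Each carries a deletion in a single Dicer1 allele and keeps the other, and each grew from a single sorted cell, so that a difference between a clone and TPC1 cannot be told apart from a difference between cells within TPC1. All lines were grown in medium with serum, and 3 mRNA libraries were sequenced per line. The time from the last change of medium to harvest, to which these genes are sensitive, is not given in the sources used here.

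Immediate early genes are transcribed within minutes of a stimulus such as serum, a growth factor or stress, without the need for new protein. Many of them answer to the ERK and p38 kinases through SRF with its ELK partners at CArG boxes, and through CREB and ATF factors at cyclic AMP response elements. Their products are mostly transcription factors: the EGR proteins are zinc finger factors, and the Fos and Jun proteins pair to form AP-1. Their mRNAs are short-lived, so in growing cells most of them are held at low levels. FRA-1, the product of FOSL1, is known to be induced in transformed thyroid cells.

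RefSeq promoter windows (GRCh38.p14, 250 bases before to 50 bases after the start, 300 bases in all) were matched for 8 of the 10 genes, all but EGR3 and FOSL1, at 11 starts. Both strands of each window were searched for 5 motifs. The CArG box is the site of SRF. TGACGT is the core of the cyclic AMP response element, to which CREB and ATF factors bind. TGACTCA is the AP-1 site in its usual form. TGACATCA is a variant that pairs of Jun and ATF proteins prefer. GCGTGGGCG is the site of the EGR proteins themselves. The 3 motifs that begin with TGAC cannot match at the same place on the same strand. EGR1 was the only one of the 8 with 2 CArG boxes in its window, shown here with the box in capitals because serum and ERK signals reach EGR1 through such boxes. The first lies at chr5:138465364-138465393, 105 bases before the start, and the second at chr5:138465386-138465415, 83 bases before it, both on the plus strand.
EGR1 first box: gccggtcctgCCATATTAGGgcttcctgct
EGR1 second box: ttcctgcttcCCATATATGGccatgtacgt
The third start of EGR2 had 1 CArG box, with the same core as the second box of EGR1 (chr10:62816418-62816447, minus strand).
EGR2 box: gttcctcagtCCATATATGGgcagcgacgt
A CArG box was found in 1.3% of all 34943 promoter windows, and 2 or more in 0.0315% of them (11 windows). FOS and FOSB each had 1 TGACGT in the window and no CArG box in it. The windows reach only 250 bases before the start, so a box further upstream could not be found for any gene. These are shown with TGACGT in capitals, on the plus strand at chr14:75278752-75278781 and chr19:45467924-45467953.
FOS element: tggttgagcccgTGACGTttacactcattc
FOSB element: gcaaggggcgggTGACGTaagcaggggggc
EGR1 had 2 matches to TGACGT and EGR2 had 1, and 7.97% of all windows held this motif. JUN and ATF3 each had 1 TGACATCA, which 2.61% of windows held. Both are shown with the site in capitals, at chr1:58784096-58784125 on the minus strand and at chr1:212565273-212565302 on the plus strand.
JUN site: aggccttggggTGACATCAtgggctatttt
ATF3 site: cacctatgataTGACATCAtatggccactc
In the windows of JUNB and IER2, none of the 5 motifs was found. TGACTCA (4.96% of all windows) and GCGTGGGCG (0.796%) were found in none of the 8 genes. A match describes letters only, not the binding of a factor.

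The values are scaled reads, which are gene counts that the authors brought to a common 20000000 aligned reads per library and that were rounded up to whole numbers. The library sums lay between 20009833 and 20014191. In 11 of the 12 libraries the spacing of the values showed the reads behind them, which came to between 12700000 and 17320000 per library. TPC1 replicate 1 has no such gaps, so 1 read there is worth at most 1 scaled read. A count of 3 reads, taken as the floor for counting error alone, corresponds to 3 to 5 scaled reads. The targeted gene DICER1 had 1101 to 1360 scaled reads in TPC1, 977 to 1093 in D11, 815 to 939 in WB1 and 627 to 809 in TD5, and was downregulated in TD5 only by both thresholds (log2 fold change −0.77, limma adjusted p = 9.023e-05). Its log2 fold change was −0.43 in WB1 (adjusted p = 0.004042, less than 1.5-fold) and −0.19 in D11 (adjusted p = 0.138). Of the thyroid markers, SLC5A5, NKX2-1 and TSHR were at 0 in all libraries, while PAX8 was abundant, and FOXE1 was lower in every clone (log2 difference −0.95, −1.06 and −1.20 for D11, WB1 and TD5, all called). Of the epithelial markers, KRT7, KRT8 and KRT18 were present and KRT19, EPCAM and CDH1 stayed under 20 scaled reads. Of 10 markers of other cell types, 8 stayed under 20 scaled reads in every library, CALCA, CDH5 and CD3E at 0, and the list summed to 195 to 293 in TPC1 and to 102 to 229 in the clones, lowest in WB1, where PDGFRB was called lower (−1.41). The part of these markers in the results that follow was not tested. The share of mitochondrially encoded RNA moved with the lines. It was 1.33% to 1.45% in TPC1, 2.07% to 2.17% in D11, 1.91% to 2.22% in WB1 and 1.67% to 1.95% in TD5.

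EGR1 was low in TPC1 and several times higher in each Dicer1 (+/−) line, FOS was higher too, and the other tested genes differed by less than 1.5-fold. EGR1 (ENSG00000120738, chromosome 5, 138465479 to 138469303, plus strand, GRCh38) encodes a zinc finger factor that serum induces within minutes. In TPC1, the 3 libraries held 23, 35 and 25 scaled reads. In D11 the libraries held 337, 265 and 427, those of WB1 140, 189 and 143, and those of TD5 349, 165 and 261. All 9 clone libraries lay above all 3 TPC1 libraries, with the lowest clone value, 140, well over the highest TPC1 value, 35. In the bulk libraries, more EGR1 RNA per cell and more cells with EGR1 RNA cannot be told apart. The mean of TPC1 was 27.7 ± 6.43 (SD, n = 3), and the clones had 343 ± 81.2 (D11), 157 ± 27.5 (WB1) and 258 ± 92.0 (TD5). These means were 12.4, 5.69 and 9.34 times that of TPC1. On the log2(value per 1000000 + 1) scale, which understates changes of low genes, the differences were 2.91, 1.89 and 2.498 (standard error 0.205). Few reads stood behind the TPC1 values, about 30 in replicate 2 and 17 in replicate 3. With the mitochondrially encoded genes left out of the scaling, the differences were 2.93, 1.91 and 2.51.

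**Figure D1:**
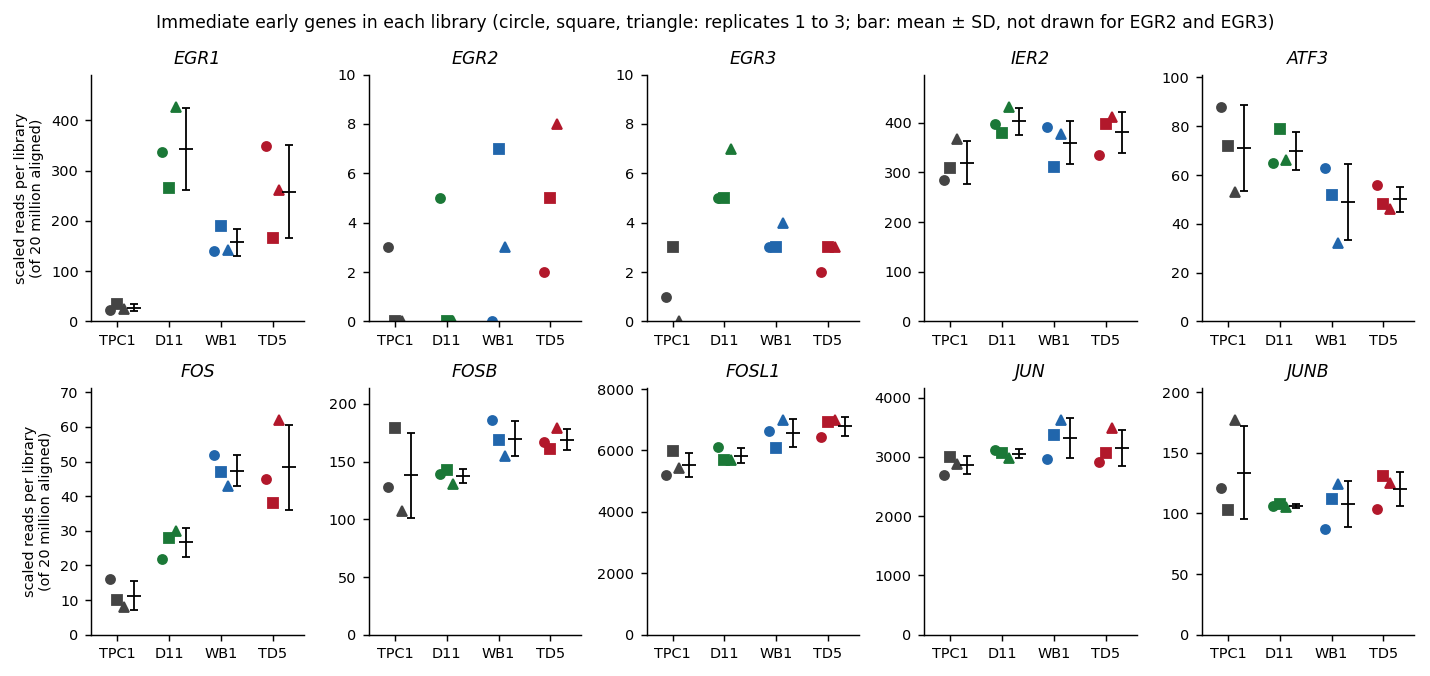
Scaled reads of the 10 genes in each of the 12 libraries, with the line on the horizontal axis and a separate vertical scale per gene. Points are libraries, and bars, drawn for all but EGR2 and EGR3, are the mean ± SD of 3. The 9 clone libraries of EGR1 lie between 140 and 427, all above TPC1 (23 to 35), and those of FOS between 22 and 62, all above TPC1 (8 to 16), while each other gene has clone libraries within the TPC1 range.

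Between the clones, the level of EGR1 differed, and these contrasts played no part in its choice. The order of the means was D11, TD5 and WB1. The libraries of D11 (265 to 427) did not overlap with those of WB1 (140 to 189). The difference of WB1 from D11 was −1.02 (standard error 0.205), and EGR1 was thus lower in WB1 by the thresholds (limma adjusted p = 0.003794), in 3 of 3 libraries. Of all tested genes, 0.88% were called lower in WB1 than in D11, 1.97% higher and 2.85% in either direction. The TD5 libraries spread from 165 to 349 and overlapped with those of both other clones. The difference of TD5 from D11 was −0.41, with a 95% confidence interval of −0.85 to 0.02 (adjusted p = 0.151). That of TD5 from WB1 was 0.60, with an interval of 0.17 to 1.04 (adjusted p = 0.0581). Both turned with the libraries or the processing. Without TD5 replicate 1, which had the highest value of the line, the difference from D11 was −0.65 and was called, and without TD5 replicate 2, the lowest, the difference from WB1 was 0.87 and was called. With all libraries kept, the difference of EGR1 between TD5 and WB1 was also called with median-of-ratios scaling (0.66, adjusted p = 0.04227) and with length correction (0.64, adjusted p = 0.0458).

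FOS (ENSG00000170345, chromosome 14, 75278826 to 75282230, plus strand) encodes the first described partner of JUN in AP-1. It had 16, 10 and 8 scaled reads in TPC1. D11 had 22, 28 and 30, WB1 had 52, 47 and 43 and TD5 had 45, 38 and 62. As for EGR1, all 9 clone libraries lay above all 3 TPC1 libraries. In all, 5.17% of the tested genes had this pattern and 6.51% the opposite one, and nothing is read from it for EGR1 or FOS, since EGR1 was chosen for its rise and FOS entered the test only through the clones. For FOS, 0 of 3 TPC1 libraries and 9 of 9 clone libraries reached 1 per 1000000, the minimum for testing. The mean of TPC1 was 11.3 ± 4.16 (SD, n = 3), and those of D11, WB1 and TD5 were 26.7 ± 4.16, 47.3 ± 4.51 and 48.3 ± 12.3, so that the clones had 2.35, 4.18 and 4.26 times the mean of TPC1. The log2 differences were 0.58 in D11, 1.11 in WB1 and 1.12 in TD5 (standard error 0.147), given as a description without a test. It stood near the floor in TPC1, with about 8 reads in replicate 2 and 5 in replicate 3. A pseudocount of 4 in place of 1 lowered the differences in WB1 and TD5 to 0.48 and 0.49.

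The order of the clones was not the same for FOS as for EGR1. FOS was highest in TD5 and WB1, whose libraries overlapped (difference 0.01, 95% confidence interval −0.30 to 0.32, limma adjusted p = 0.978). D11, which had the most EGR1, had the least FOS of the clones, and its libraries (22 to 30) lay below all of WB1 (43 to 52) and TD5 (38 to 62). The differences from D11 were 0.53 for WB1 (adjusted p = 0.03225) and 0.54 for TD5 (adjusted p = 0.0147), both under 1.5-fold on the log2 scale with the pseudocount. With the replicate number as a block the adjusted p for WB1 was 0.05157. Without D11 replicate 3 or TD5 replicate 2 the difference between TD5 and D11 was called (0.59 and 0.65). With all libraries kept, weights from voom called FOS against D11 in WB1 (0.824) and TD5 (0.828). A pseudocount of 0.1 called it in TD5 (0.795). Of 25 alternatives, 23 for WB1 and 20 for TD5 kept their side of the thresholds.

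The ratio of EGR1 to FOS scaled reads was compared after both patterns had been seen. In D11 it was 15.3, 9.46 and 14.2. In WB1 it was 2.69, 4.02 and 3.33, and in TD5 7.76, 4.34 and 4.21. The TPC1 libraries had ratios of 1.44, 3.5 and 3.12 from few reads. The 3 D11 ratios were above those of every other library, and those of WB1 lay within or near the TPC1 range. The mean log2 ratio of D11 was 1.95 above that of WB1 and 1.29 above that of TD5, and TD5 was 0.66 above WB1. In each of these 3 pairs the libraries of the clones did not overlap. The differences are a description without a test.

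**Figure D2:**
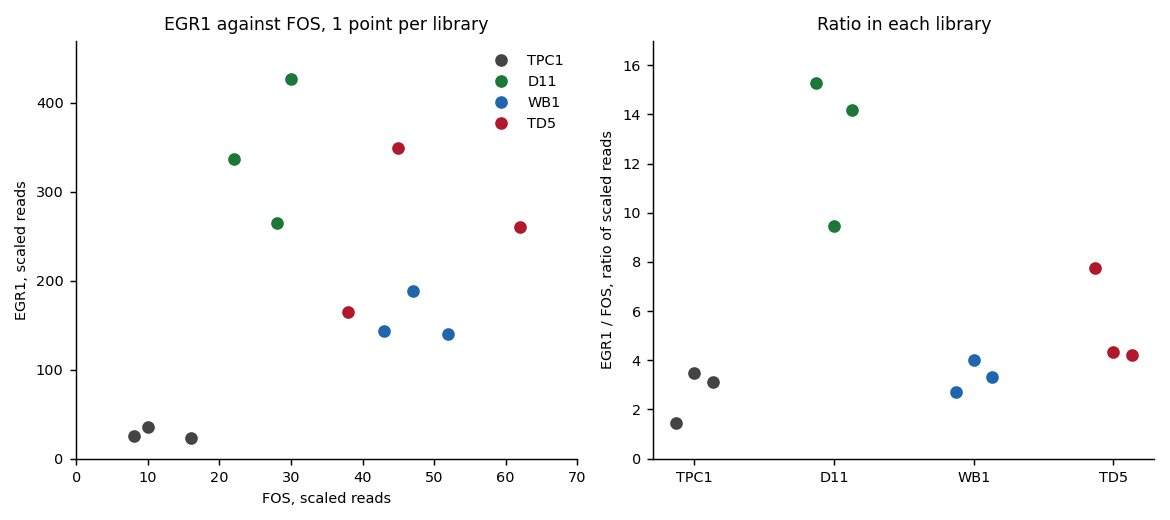
EGR1 against FOS in scaled reads, with 1 point per library coloured by line (left), and the ratio of EGR1 to FOS in each library by line (right). The D11 libraries lie at the upper left of the clones, with ratios of 9.46 to 15.3, and those of WB1 below and to the right of them, with ratios of 2.69 to 4.02.

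The other members of the Fos family differed less. FOSL1 (ENSG00000175592, chromosome 11, 65892049 to 65900573, minus strand) had 5204, 5973 and 5438 scaled reads in TPC1. D11 had 6116, 5705 and 5683, WB1 had 6632, 6087 and 6978 and TD5 had 6433, 6942 and 6990. In all, 7 of the 9 clone libraries lay above TPC1, with 2 of D11 within its range. The log2 differences were 0.08 in D11 (limma adjusted p = 0.3732), 0.24 for WB1 (adjusted p = 0.009776) and 0.29 for TD5 (adjusted p = 0.006733), and none reached 1.5-fold. FOSL1 also differed between TD5 and D11 by 0.22 (adjusted p = 0.02265). FOSB (ENSG00000125740, chromosome 19, 45467995 to 45475179, plus strand), a Fos protein best known from the nervous system, had 128, 179 and 107 in TPC1. The 3 D11 libraries gave 139, 143 and 131, those of WB1 186, 169 and 155 and those of TD5 167, 161 and 179. The TPC1 libraries spanned nearly the whole range, and the differences were 0.02, 0.29 and 0.28 (adjusted p = 0.9176, 0.111 and 0.1848). FOSB overlaps ERCC1 on the opposite strand, and the strand setting of the counting is not given in the sources used here, so the division of reads between them is uncertain.

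Of the Jun family, JUN (ENSG00000177606, chromosome 1, 58776845 to 58784048, minus strand), the main AP-1 partner of the Fos proteins, had 2698, 3003 and 2877 scaled reads in TPC1. The D11 libraries had 3119, 3061 and 2974, those of WB1 2961, 3364 and 3621 and those of TD5 2911, 3064 and 3493. Of the clone libraries, 6 of 9 lay above TPC1. The log2 differences were 0.09 in D11 (limma adjusted p = 0.3543), 0.21 for WB1 (adjusted p = 0.04828) and 0.14 for TD5 (adjusted p = 0.2625), with none at 1.5-fold. JUNB (ENSG00000171223, chromosome 19, 12791486 to 12793315, plus strand), which can restrain JUN at some targets, had 121, 103 and 177 in TPC1. In D11 the libraries held 106, 108 and 105, those of WB1 87, 112 and 124 and those of TD5 104, 131 and 125. All but 1 of the clone libraries were within the TPC1 range, which TPC1 replicate 3 set at the top. Its differences were −0.25, −0.25 and −0.11 (adjusted p = 0.2103, 0.2248 and 0.701). JUNB overlaps HOOK2 on the opposite strand, with the same uncertainty as for FOSB.

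IER2 (ENSG00000160888, chromosome 19, 13150411 to 13154911, plus strand), a small nuclear protein induced by serum, had 284, 308 and 367 scaled reads in TPC1. The 3 D11 libraries gave 398, 379 and 432, those of WB1 392, 310 and 377 and those of TD5 334, 398 and 411. All 3 D11 libraries and 7 of the 9 clone libraries lay above TPC1. The log2 differences were 0.32 in D11 (limma adjusted p = 0.03601, under 1.5-fold), 0.16 for WB1 (adjusted p = 0.2822) and 0.24 for TD5 (adjusted p = 0.1753). IER2 overlaps 2 long noncoding RNA genes on the opposite strand.

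ATF3 (ENSG00000162772, chromosome 1, 212565334 to 212620777, plus strand), which stress induces and which often represses its targets, had lower means in WB1 and TD5 than in TPC1. It had 88, 72 and 53 in TPC1. The D11 libraries had 65, 79 and 66, those of WB1 63, 52 and 32 and those of TD5 56, 48 and 46. The WB1 and TD5 libraries lay at or below the middle of the TPC1 range, and 4 of the 9 clone libraries were under every TPC1 library. The log2 differences were 0.00 in D11, −0.41 for WB1 (limma adjusted p = 0.0736) and −0.36 for TD5 (adjusted p = 0.1736), none of which passed the test.

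EGR2 and EGR3 had too few reads to compare. EGR2 (ENSG00000122877, chromosome 10, 62811996 to 62819167, minus strand), known from myelination, had 3, 0 and 0 scaled reads in TPC1. D11 had 5, 0 and 0, WB1 had 0, 7 and 3 and TD5 had 2, 5 and 8. EGR3 (ENSG00000179388, chromosome 8), a relative best known from lymphocytes and neurons, had 1, 3 and 0 in TPC1. In D11 the libraries held 5, 5 and 7, those of WB1 3, 3 and 4 and those of TD5 2, 3 and 3. For each gene 10 of the 12 libraries were at or under the floor of 3 reads, and neither passed the filter on low values. Each overlaps a long noncoding RNA gene.

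Leaving EGR1 and FOS aside, limma called 0 of the 6 other tested genes against TPC1 in D11, WB1 or TD5, and weights from voom likewise called 0. Their log2 differences lay between −0.41 and 0.32. At an unadjusted p under 0.05 there were 1, 4 and 4 of the 6, and 1, 2 and 1 had an adjusted p under 0.05. The share of all tested genes at an unadjusted p under 0.05 is not given here, so nothing is read from the unadjusted counts. Of all 16027 tested genes, 4.84%, 4.99% and 2.6% were called in D11, WB1 and TD5, with 2.89%, 3.39% and 1.12% called higher and 1.95%, 1.59% and 1.48% called lower, and 33.3%, 30.9% and 11.9% had an adjusted p under 0.05. The balance in D11 turned with the scaling, from 463 higher and 312 lower to 340 and 365 with median-of-ratios scaling, 261 and 314 with GC correction and 288 and 370 with length correction. Between the clones, EGR1 in WB1 against D11 was the 1 call among the 8. In TD5 against D11 and in TD5 against WB1 limma called 0, where 3.99% and 2.33% of all tested genes were called (1.67% higher and 2.32% lower in the former, 0.611% higher and 1.72% lower in the latter). The balance turned likewise in TD5 against D11, from 268 higher and 372 lower to 310 and 282 with median-of-ratios scaling, 301 and 216 with GC correction and 343 and 239 with length correction. At an unadjusted p under 0.05 there were ATF3 (−0.36), FOS and FOSL1 in TD5 against D11 and EGR1 in TD5 against WB1. In WB1 against D11 there were ATF3 (−0.41), FOS (0.53) and FOSL1 (0.17) besides EGR1. The same limit holds for these.

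**Figure D3:**
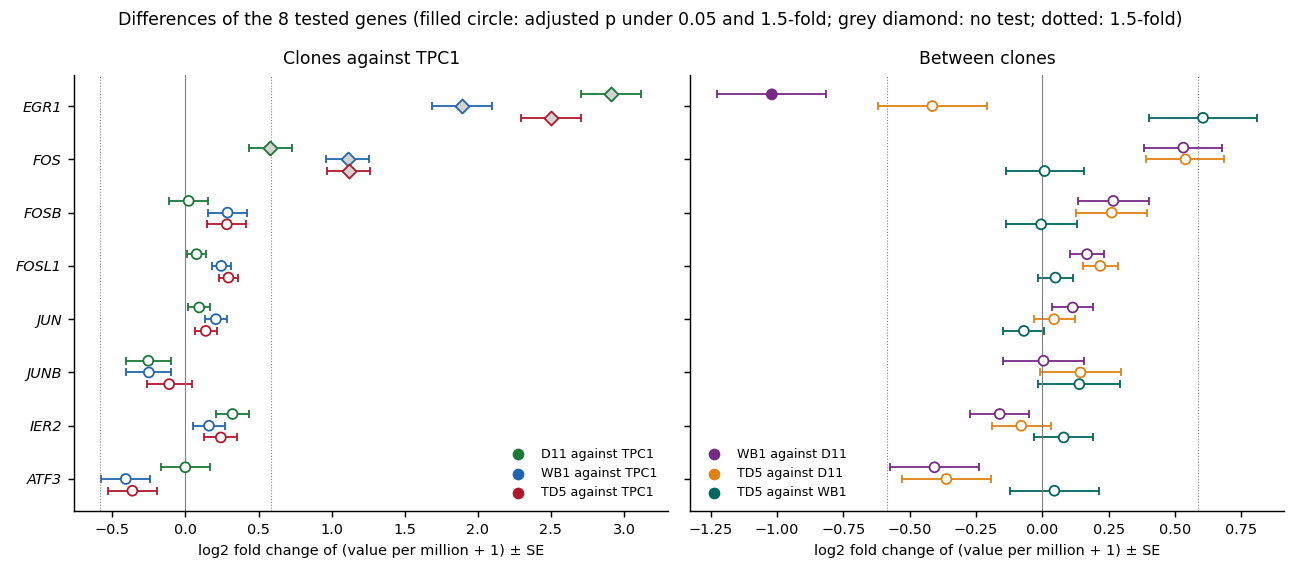
Log2 differences of the 8 tested genes with their standard errors, for each clone against TPC1 (left) and between the clones (right); filled circles passed both thresholds and grey diamonds mark EGR1 and FOS against TPC1, for which no test is given. Against TPC1 the points other than EGR1 and FOS lie between −0.41 and 0.32, and between the clones EGR1 has a filled circle at −1.02 for WB1 against D11.

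Per kb of transcript, the most abundant of the 10 genes was FOSL1 in every line. Its mean was 3254, 3428, 3858 and 3989 scaled reads per kb in TPC1, D11, WB1 and TD5, above 96.9% of 15879 tested genes in TPC1 and 97.7% in TD5. JUN followed at 878, 937, 1018 and 969 per kb. EGR1 was at 8.82 per kb in TPC1, where 4.57% of the tested genes were lower, and at 109, 50.1 and 82.4 per kb in D11, WB1 and TD5, where 38.4%, 22.8% and 33.5% were lower. FOS stayed low, at 5.39 per kb in TPC1 and at 12.7, 22.5 and 23.0 per kb in the clones, and IER2 was in the middle, at 152 to 191 per kb. EGR1 thus changed its place from below FOSB, ATF3 and JUNB in TPC1 to above JUNB in D11 and TD5, and FOS stayed below FOSB in every line.

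In the Fos family, FOSL1 made up 76.7% ± 1.54 of the summed level per kb in TPC1, and 80.8% ± 0.740, 81.1% ± 1.27 and 81.0% ± 0.561 in D11, WB1 and TD5 (SD, n = 3). FOSL2, a further Fos gene that is not among the 10, made up 22.4% in TPC1 and 18.1%, 17.4% and 17.6% in the clones. Its scaled reads differed from TPC1 by −0.30 in D11 (limma adjusted p = 0.0003341), −0.19 for WB1 (adjusted p = 0.006806) and −0.13 for TD5 (adjusted p = 0.09468), none at 1.5-fold. FOS held 0.128% of the family in TPC1 and 0.30%, 0.475% and 0.466% in D11, WB1 and TD5. Although FOS was higher in the clones, its share was at most 0.584% of the Fos family RNA in any library, and that of FOSB lay between 0.681% and 1.06%. Of the Jun family, JUN made up 79.4% in TPC1 and 81.1%, 84.1% and 78.8% in the clones. JUNB made up 6.60% in TPC1 and between 4.84% and 5.34% in the clones, and JUND the rest.

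**Figure D4:**
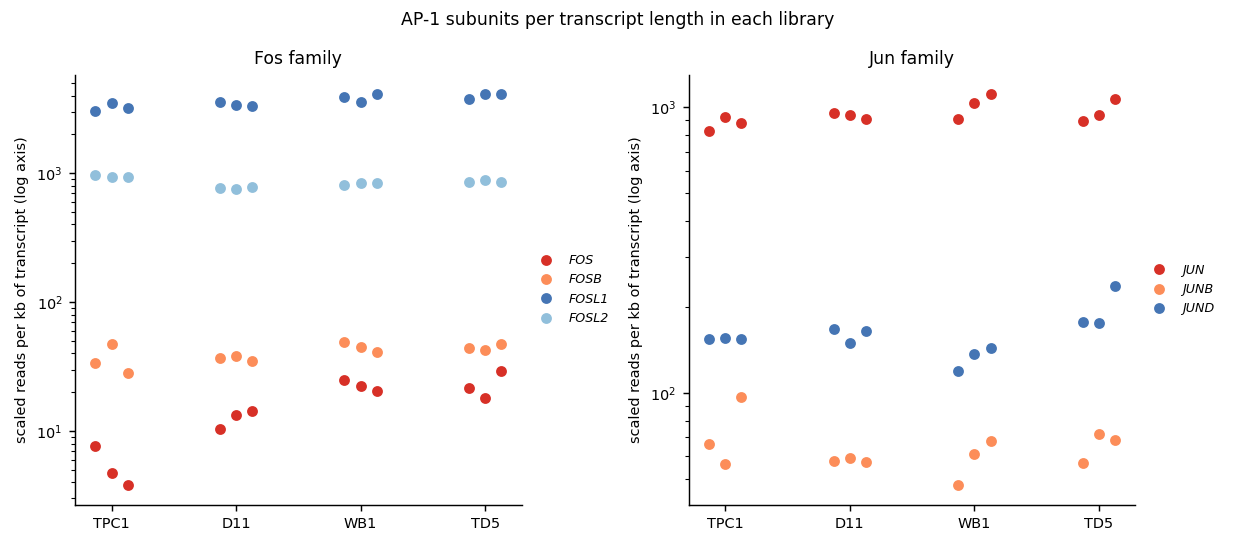
Scaled reads per kb of transcript, on a log axis, of the Fos family (left) and the Jun family (right) in each library, grouped by line, with 1 point per library and 1 colour per gene. FOSL1 (mean 3254 to 3989) and JUN (878 to 1018) are the most abundant of their family in all 12 libraries, and FOS lies below FOSB in each of them.

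Over the 12 libraries, the genes whose log2 level went most closely with EGR1 were ZNF256 and RBSN (Pearson r = 0.926 each), C5 (0.922), FAM107B (0.921) and MT-ND3 (0.914), of 15526 genes compared. These values are a description, since the points share 4 lines and EGR1 has 3 low libraries that are all TPC1. FAM107B had 807 ± 46.3 scaled reads in TPC1 (SD, n = 3), 1301 ± 20.5 in D11, 955 ± 29.8 in WB1 and 1178 ± 131 in TD5. Its means had the order of EGR1, as did those of ZNF256, RBSN and C5. The choice of these genes by r favours that order, so nothing is read from it. MT-ND3 is encoded in mitochondria, whose share of RNA moved with the lines as given above. None of the 5 is an immediate early gene of the lists used here. Of the set itself, FOS had r = 0.671, IER2 0.609, FOSL1 0.441, JUN 0.396, FOSB 0.287, ATF3 −0.211 and JUNB −0.452.

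Of 32 other immediate early genes on the list, 28 were tested. In D11, 0 were called higher and 1 lower, in WB1 1 higher and 3 lower, and in TD5 0 higher and 4 lower. Together these were 3.57%, 14.3% and 14.3% of the 28, beside 4.84%, 4.99% and 2.6% of all tested genes. An adjusted p under 0.05 was reached by 11, 12 and 11 of them (39.3%, 42.9% and 39.3%), beside 33.3%, 30.9% and 11.9% of all tested genes. Their median difference was 0.04, −0.02 and 0.06, beside 0.05, 0.06 and 0.00 for all tested genes. BTG2, a growth inhibitor, had 429, 309 and 350 scaled reads in TPC1 and 468, 395 and 412 in D11, but 205, 185 and 211 in WB1 and 221, 222 and 187 in TD5. It fell by 0.79 in WB1 (limma adjusted p = 0.0001464) and by 0.73 in TD5 (adjusted p = 0.0005778). DUSP2, a nuclear phosphatase of ERK, fell in all 3 clones, by 0.83, 0.91 and 0.85 (adjusted p = 0.002897, 0.001513 and 0.004981), to 10 to 24 scaled reads from 34 to 57. SGK1, a kinase induced by serum and glucocorticoids, fell by 0.82 in TD5 (adjusted p = 0.0001303).

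The factors and kinases upstream of these genes, 22 in number and all tested, had 1 call each in D11 and WB1 (4.55%, beside 4.84% and 4.99% of all tested genes) and 0 in TD5. An adjusted p under 0.05 was reached by 17, 13 and 4 of them in D11, WB1 and TD5, or 77.3%, 59.1% and 18.2%, beside 33.3%, 30.9% and 11.9% of all tested genes. The call was ELK3, an ETS partner of SRF, which rose by 0.63 in D11 (limma adjusted p = 0.0004008) and 0.70 in WB1 (adjusted p = 0.0001447) and had a difference of 0.51 in TD5 (adjusted p = 0.003353). Their median difference was 0.23 in D11, 0.18 in WB1 and 0.06 in TD5. Among the 12 genes of ERK feedback, 0 were called higher and 1 lower in D11, 2 higher and 0 lower in WB1, and 0 in TD5 (8.33%, 16.7% and 0%, beside 4.84%, 4.99% and 2.6% of all tested genes). An adjusted p under 0.05 was reached by 6, 8 and 3 of the 12, or 50%, 66.7% and 25%, beside 33.3%, 30.9% and 11.9% of all tested genes. The median difference of the 12 was 0.23, 0.32 and 0.25, beside 0.05, 0.06 and 0.00 for all tested genes. ETV1, an ETS factor that ERK stabilises, rose by 0.74 in WB1 (adjusted p = 0.0007257). DUSP6, a phosphatase of ERK, had differences of 0.55 in D11 (adjusted p = 0.0007886), 0.32 for WB1 (adjusted p = 0.02394) and −0.09 for TD5 (adjusted p = 0.6173). SPRY1, an inhibitor of receptor signalling, had −0.26, 0.41 and 0.50 with no adjusted p under 0.05.

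Of the 14 corepressors and targets of EGR1, 13 were tested. In D11 0 were called higher and 1 lower, in WB1 1 and 3, and in TD5 1 and 2, with medians of −0.03, 0.08 and −0.02. These were 7.69%, 30.8% and 23.1% of the 13, beside 4.84%, 4.99% and 2.6% of all tested genes, and 6, 7 and 6 (46.2%, 53.8% and 46.2%) had an adjusted p under 0.05, beside 33.3%, 30.9% and 11.9%. VEGFA, the angiogenic growth factor, rose by 1.29 in WB1 (limma adjusted p = 2.082e-05) and by 1.146 in TD5 (adjusted p = 0.0001274), with 0.49 in D11 (adjusted p = 0.02138). Its libraries had 847, 1141 and 740 scaled reads in TPC1. D11 had 1306, 1120 and 1376, WB1 had 2116, 2027 and 2523 and TD5 had 2355, 1536 and 2223. D11 had the lowest mean of VEGFA among the clones, and a relation of VEGFA to EGR1 was not tested. ICAM1, a leukocyte adhesion molecule, was at 60 to 95 scaled reads in TPC1 and 0 to 7 in the clones and fell by 2.17, 2.05 and 2.07 in D11, WB1 and TD5 (adjusted p = 5.065e-08, 3.066e-07 and 2.302e-07). The study singled out ICAM1 on these samples, and it passed the filter on low values only through TPC1, so it is no independent evidence. It is among the calls of this list in every clone, so nothing is read from the counts and shares of the list. GDF15, a stress-induced cytokine, fell by 0.83 in WB1 (adjusted p = 3.697e-05).

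Of the 15 further partners of AP-1 proteins, 14 were tested and 0, 0 and 1 were called in D11, WB1 and TD5 (0%, 0% and 7.14%, beside 4.84%, 4.99% and 2.6% of all tested genes). An adjusted p under 0.05 was reached by 6, 3 and 1 of them (42.9%, 21.4% and 7.14%), beside 33.3%, 30.9% and 11.9% of all tested genes. The call was BATF2, at 21 to 34 scaled reads in TD5 against 6 to 19 in TPC1 (0.60, limma adjusted p = 0.02483), which passed the filter only through D11 and TD5. Nothing is read from its test or from the share that it makes up. Of the 14 AP-1 targets, 12 were tested. In D11 0 were called higher and 1 lower, in WB1 1 of each, and in TD5 1 higher and 2 lower, with medians of −0.06, 0.14 and 0.01. These were 8.33%, 16.7% and 25% of the 12, beside 4.84%, 4.99% and 2.6% of all tested genes, and 2, 6 and 7 (16.7%, 50% and 58.3%) had an adjusted p under 0.05, beside 33.3%, 30.9% and 11.9%. IL6, an inflammatory cytokine, fell in all 3 clones, with log2 differences of −0.62, −0.79 and −1.0 (adjusted p = 0.014, 0.003494 and 0.001376). CXCL8, the neutrophil chemokine, had 464, 309 and 417 scaled reads in TPC1 and 81, 141 and 101 in TD5, where it fell by 1.72 (adjusted p = 4.982e-05). MMP3, a matrix protease, rose by 1.03 in WB1 (adjusted p = 0.0008657), where it had 65, 30 and 24 scaled reads against 6 to 11 in TPC1, and it passed the filter only through WB1. Nothing is read from its test or from the WB1 share of the AP-1 targets, which counts it. In the 10 heat shock genes, which other stresses induce, limma called 0 in any clone, beside 4.84%, 4.99% and 2.6% of all tested genes. An adjusted p under 0.05 was reached by 0, 0 and 1 of them (0%, 0% and 10%), beside 33.3%, 30.9% and 11.9% of all tested genes.

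**Figure D5:**
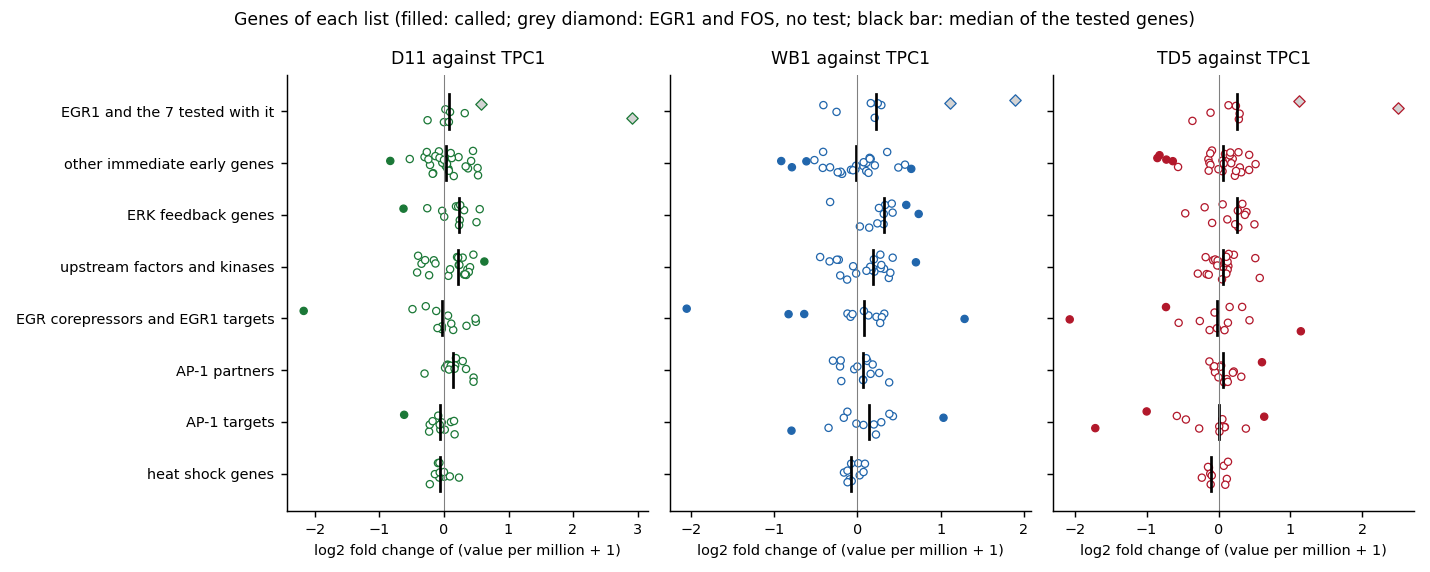
Log2 difference from TPC1 of each tested gene, by list (rows) and clone (panels), with 1 point per gene, filled where both thresholds were passed, and a black bar at the median of the list. EGR1 (the rightmost of the grey diamonds, which mark EGR1 and FOS and carry no test) stands at 2.91, 1.89 and 2.498, while the medians of the 28 other immediate early genes lie at 0.04, −0.02 and 0.06.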

How the data were processed

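The deposited table holds a score per gene and library: the authors prepared stranded mRNA libraries, sequenced them as paired ends, mapped reads with STAR 2.5.3a to GRCh38, counted them on Ensembl genes with HTSeq 0.9.1 and scaled the counts to a fixed number of aligned reads, and the values are rounded up. Versions are from the submitters' processing notes. Whether counting used the strand is not given in the sources used here. Since the values are not counts, no count model was used. Depth is given in the report.

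Libraries were grouped by their titles, 3 per line. The labels do not say whether they came from separate cultures, and the methods say of the experiments in general that they were repeated independently, so p-values measure the spread between these libraries, which may be technical. Each value was expressed per 1000000 of its library, and after adding 1 its log2 was fitted by limma 3.58.1 (R 4.3.3), with a variance trend and a mean for each line, in all 12 libraries together. A gene was tested if at least 3 libraries reached 1 per 1000000 (16027 of 58302). Called genes had a Benjamini-Hochberg adjusted p under 0.05 over all tested genes and a change of 1.5-fold. The fit was tested on simulated data. The genes and lists were chosen with earlier results of these data known. Named were all 10 genes, DICER1, from each list up to 3 genes of the largest change among those called in any of the 6 comparisons, and the 5 genes most correlated with EGR1. Genes were placed with GENCODE annotation of GRCh38, and levels per kb used canonical transcript lengths. Same-numbered libraries of TD5 and D11 deviated together from the means of their lines (r = 0.107, 0.172 and 0.348). The main fit did not pair libraries, and a block for the replicate number over all lines was added as an alternative. No other pair of lines had all values over 0.1. Alternatives covered pseudocount, filter, thresholds, scaling, GC and length correction, weights, a replicate block and leaving out each library. Figures were drawn with matplotlib 3.10.9 in Python 3.11.15, with scipy 1.17.1, pandas 2.3.3 and numpy 2.4.6.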

Additional observations from a re-analysis of the deposited data

Results flagged for a closer look

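Several genes had an effect against TPC1 that differed between the clones by the limma test of the difference itself. EGR1 was lower in WB1 than in D11 (−1.02), while FOS was higher in both WB1 (0.531) and TD5 (0.539) than in D11, and FOSL1 was higher in TD5 than in D11 (0.218). The differences of FOS and FOSL1 had an adjusted p under 0.05 but were under 1.5-fold on the log2 scale with the pseudocount. The mean scaled reads of FOS in WB1 and TD5 were 1.775 and 1.812 times that of D11.

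DICER1 was lower in TD5 than in D11 (−0.58) and than in WB1 (−0.34), both under 1.5-fold on the same scale. Among the other genes named, BTG2 was lower than in D11 in both WB1 (−1.013) and TD5 (−0.952). CXCL8 was lower in TD5 than in D11 (−1.484) and than in WB1 (−1.369). DUSP6 was lower in TD5 than in D11 (−0.643), and SPRY1 was higher there (0.759). VEGFA was higher than in D11 in WB1 (0.799) and TD5 (0.658), and GDF15 was lower in WB1 than in D11 (−0.705). MMP3 was highest in WB1, which exceeded D11 by 0.869, and TD5 differed from WB1 by −0.949. BATF2 was higher in TD5 than in WB1 (0.606). MMP3 passed the filter on low values only through WB1, and BATF2 only through D11 and TD5. Their differences are therefore a description, and nothing is read from the test. PDGFRB, a mesenchymal marker among those of other cell types, was lowest in WB1, with −0.945 against D11, and TD5 exceeded WB1 by 1.349.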

How the results depend on the processing

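Of 1236 recomputed differences of the tested genes over 26 alternatives, 1210 kept their side of the thresholds, 24 gained a call, 2 lost one and 0 reversed a call, and 35 that were called in neither fit changed sign. EGR1 in WB1 against D11 was called under every alternative (−1.18 to −0.82, limma adjusted p 0.0005232 to 0.02899). The counts against TPC1 that follow include EGR1 and FOS, which the choice of genes and the filter on low values favour, so nothing is read from them. With a pseudocount of 4 the difference of FOS was 0.48 in WB1 and 0.487 in TD5, and a filter of 5 per 1000000 removed it.

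Of the 8 tested genes, a pseudocount of 0.1 called 2 in D11 against TPC1 and 1 in TD5 against D11, and a pseudocount of 4, or the filter of 5 per 1000000, called 1 each in WB1 and TD5. Without a minimum change the calls were 3 in D11 and 4 in WB1, and 2 each in WB1 and TD5 against D11. GC correction, alone or with the replicate block, and leaving out the mitochondrially encoded genes called 2 in D11. Weights from voom called 2 in D11, 2 in WB1 against D11 and 1 in TD5 against D11. Median-of-ratios scaling and length correction each called 1 in TD5 against WB1, which was EGR1. The cause was not tested, apart from the thresholds themselves.

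Over the lists of other genes, 5, 13 and 11 were called in D11, WB1 and TD5, and 7, 9 and 4 in WB1 against D11, TD5 against D11 and TD5 against WB1. Of all tested genes, 4.84%, 4.99%, 2.6%, 2.85%, 3.99% and 2.33% were called in the same order. The list counts here and below show only how calls moved with the settings, and nothing else is read from them. A pseudocount of 4 gave 3 in D11, 7 in TD5, 5 in TD5 against D11 and 2 in TD5 against WB1, and the filter of 5 per 1000000 3, 7 and 2 in D11, TD5 and TD5 against WB1. Without a minimum change there were 47, 48, 33, 23, 44 and 19, and at 2-fold 1, 3, 3, 1, 1 and 1. Without a minimum change, 33.3%, 30.9% and 11.9% of all tested genes were called in D11, WB1 and TD5 against TPC1. DICER1 in WB1 was called without a minimum change (−0.434), with GC correction, with or without the block (−0.623), and with length correction (−0.59), and in TD5 it was lost at 2-fold (−0.774).

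With 1 library left out in turn, the tested genes called were 1 to 2 in D11, 2 to 2 in WB1 and in TD5, 1 to 1 in WB1 against D11, and 0 to 1 in TD5 against D11 and against WB1. The list genes were 3 to 7, 10 to 14, 9 to 17, 5 to 8, 5 to 9 and 1 to 4 in the same order. DICER1 ranged from −0.25 to −0.10 in D11, −0.49 to −0.34 in WB1 and −0.89 to −0.68 in TD5.

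With the replicate block, EGR1 in WB1 against D11 was −1.02 (limma adjusted p = 0.009442) and in TD5 against D11 −0.415 (adjusted p = 0.1864). The fit with this block called 1, 0 and 0 of the tested genes between the clones, as without the block. Over all genes the balance of calls also shifted in WB1, from 544 higher and 255 lower to 418 and 331 with median-of-ratios scaling and 386 and 316 with length correction, and in TD5 against WB1, from 98 and 275 to 130 and 218 with the former and 135 and 192 with the latter. Low reads limit FOS in TPC1 and leave EGR2 and EGR3 without a comparison.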
